A study of Saccharomyces cerevisiae with 6 samples.

Results

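The regions described here are 10451 wide gaps between neighbouring called nucleosomes of budding yeast. They were chosen by the called positions and read counts of the wildtype 0 h library. A gap was the distance of 300 to 600 bp between the centres of consecutive calls on a chromosome, with at least 20 read centres within 50 bp of the centre on both sides. There were 52151 pairs of consecutive calls, and 44374 of them had 20 or more read centres on both sides. The gap interior ran from 90 bp inside the left centre to 90 bp inside the right centre, so that reads of the flanking nucleosomes themselves were left out. Because the wildtype 0 h library chose the gaps, its values at the gaps are given as a description only.

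Nucleosomes were mapped by MNase-seq in 6 single-end libraries. Micrococcal nuclease (MNase) digests DNA that no nucleosome protects, and the centre of each sequenced fragment, extended to the mean length of its library, stands for the nucleosome centre. In the H3 shutoff strain (DCB200.1), HHT1 is deleted and HHT2, the only remaining gene for histone H3, is driven by the GAL1 promoter, which is active in galactose and silenced in dextrose. H3 shutoff cells were grown in galactose and sampled at 3 h (n = 2 libraries) and at 0 h (n = 2) after their transfer to dextrose. Wildtype cells (YEF473A), which keep both H3 genes under their own promoters, were treated alike and sampled at 3 h (n = 1) and at 0 h (n = 1). The 0 h sample of either strain was taken just after the transfer, so galactose growth and a wash in dextrose are common to all groups. The study describes the H3 shutoff cells as arresting with large buds in dextrose, so that at 3 h the depletion of H3 and the arrest cannot be told apart. Per the methods, a culture was sampled at both times, and libraries with the same replicate number in their titles were taken as such a pair. Wildtype values, with 1 library a time, have no replicate error.

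A nucleosome wraps DNA around an octamer that holds a pair of H3 molecules. In yeast, nucleosomes follow each other at a regular spacing over genes, with short linkers between them, and the regular spacing is interrupted by nucleosome-depleted regions, most of them in promoters and at the ends of genes. Such regions are known to be kept open by stiff runs of A and T, by general regulatory factors and by remodelling enzymes such as RSC, and MNase shows them as stretches with few read centres.

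Each library held 5000001 reads, so that levels are shares of an equal total, and a loss spread evenly over the genome would leave them as they were. Fragments had a mean length of 158 and 165 bp in the H3 shutoff libraries of 3 h, against 170 and 172 bp in those of 0 h, and of 174 bp in wildtype at either time. The share of distinct intervals was 59.5% and 64.5% in the H3 shutoff libraries of 3 h, against 52.7% and 51.9% in those of 0 h. In wildtype it was 46.2% at 3 h against 47.8% at 0 h. Reads were extended to the mean length of their library. Those with the same interval, called identical fragments below, need not be copies of 1 molecule. Reads were not tagged with molecular identifiers, and the intervals given for shares of reads reflect the counting error alone. The part of fragment length in the differences below was not tested. Counting each distinct interval once was tried as an alternative, and it moved some of the differences by over 1.5 times or turned their sign. An exact permutation test (two-sided) of 2 libraries against 2 has a smallest possible p of 1 in 3. Single values are therefore given per pair, as the 3 h library over the 0 h library of the same replicate, without a p-value. One library stood apart: at gaps of 350 to under 500 bp, H3 shutoff 0 h replicate 1 lay at the level of the 3 h libraries, and results at the wider gaps are given per pair or without this library too.

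Most of the gaps were not depleted of read centres. In the wildtype 0 h list, with a mean fragment length of 174 bp, no pair of centres was closer than 175 bp. A gap under 350 bp therefore had no room for another call between its flanks, whatever its reads. Of the 10451 gaps, 10288 were under 350 bp, and only 163 were 350 bp or wider. Interiors of the gaps under 350 bp had a mean density of 0.858 and 0.878 times the genome mean in H3 shutoff at 3 h, against 0.819 and 0.855 in H3 shutoff at 0 h. In wildtype the same interiors were at 0.824 at 3 h against 0.823 at 0 h. Interiors of the 163 wider gaps were at 0.206 and 0.219 in H3 shutoff at 3 h, against 0.210 and 0.0742 in H3 shutoff at 0 h, and at 0.0860 in wildtype at 3 h against 0.0528 at 0 h. The name of a nucleosome-depleted gap thus held for the gaps of 350 bp or more, and they are described apart from the narrower ones throughout. The split at 350 bp was set after this limit of the calling was seen.

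**Figure D1:**
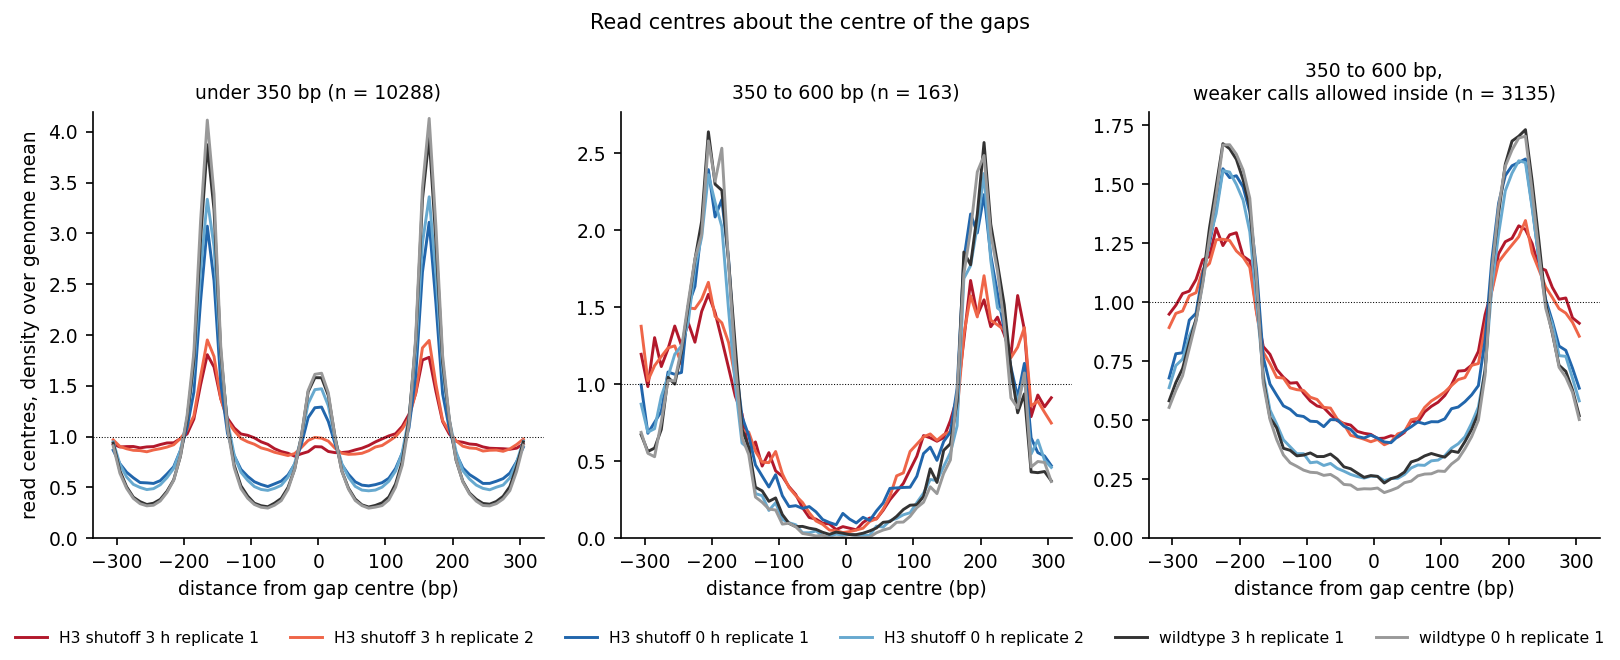
Read centres in bins of 10 bp about the centre of the gaps, as density over the genome mean (vertical axes differ between panels), against the distance from the gap centre in bp, for the 6 libraries (lines). Left, 10288 gaps under 350 bp hold a ridge of read centres at the middle that is low in H3 shutoff at 3 h; middle, 163 gaps of 350 bp or more are close to empty at the middle; right, 3135 gaps of 350 to 600 bp when weaker calls may lie inside.

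The values just inside and just outside the limits of the rule were alike at the lower width limit. The 1742 gaps of 300 to under 310 bp had interiors at 0.866 and 0.871 in H3 shutoff at 3 h, against 0.771 and 0.791 at 0 h. The 1556 gaps of 290 to under 300 bp, just outside, were at 0.843 and 0.868 at 3 h against 0.802 and 0.738 at 0 h. At the upper limit only 2 gaps lay between 550 and 600 bp, at 0.0282 and 0.0627 in H3 shutoff at 3 h against 0.0407 and 0.0345 at 0 h, and 4 gaps over 600 and up to 650 bp were at 0.120 and 0.106 at 3 h against 0.0942 and 0.118 at 0 h. Where the weaker flank had 20 to 24 read centres (468 gaps), interiors were at 0.643 and 0.619 in H3 shutoff at 3 h against 0.503 and 0.446 at 0 h. With 15 to 19 (316 gaps, outside the rule) they were at 0.549 and 0.531 at 3 h against 0.455 and 0.341 at 0 h.

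Gaps of both kinds were spread over all 16 nuclear chromosomes. The gaps under 350 bp ranged from 72.7 per 100 kb on chromosome 3 to 91.8 per 100 kb on chromosome 14. The gaps of 350 bp or more ranged from 0.434 per 100 kb on chromosome 1 to 2.21 per 100 kb on chromosome 3. Within 20 kb of a chromosome end lay 12 of the 163 wider gaps (7.36%) and 447 of the narrower ones (4.34%), beside 5.22% of all 52167 called nucleosomes. The wider gaps had a median width of 397 bp, and the widest spanned 568 bp.

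In the gaps under 350 bp, the middle lost read centres in H3 shutoff at 3 h while the edges gained them. The density within 20 bp of the gap centre was 0.876 and 0.972 times the genome mean in H3 shutoff at 3 h, against 1.22 and 1.38 at 0 h. The log2 change at the middle was -0.48 in replicate 1 and -0.51 in replicate 2. Over the first 20 bp on each side of the interior, the density was 0.884 and 0.846 at 3 h, against 0.542 and 0.495 at 0 h, with log2 changes of 0.71 and 0.77. Wildtype moved little, with a middle at 1.49 at 3 h against 1.52 at 0 h and edges at 0.359 at 3 h against 0.342 at 0 h. In both measures the 2 H3 shutoff libraries of 3 h did not overlap the 2 of 0 h or the wildtype 3 h library. With 1 read per identical fragment the middle changed by -0.37 and -0.42 and the edges by 0.40 and 0.45, and the same libraries did not overlap.

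The ratio of middle to edge gives the height of the ridge inside these gaps. It was 0.991 and 1.15 in H3 shutoff at 3 h, against 2.26 and 2.80 in H3 shutoff at 0 h, and 4.16 in wildtype at 3 h against 4.45 at 0 h. The middle was denser than the edge in 46.8% and 53.7% of the 10288 gaps in H3 shutoff at 3 h, against 75.4% and 81.0% in H3 shutoff at 0 h. In wildtype the share was 84.3% at 3 h and 87.0% at 0 h. At 3 h the ridge was thus close to level with its surroundings in H3 shutoff replicate 1 and slightly above them in replicate 2.

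Ordinary linkers gained read centres too. The comparison took 33917 linkers between centres 150 to under 300 bp apart, with the same count limit on both sides, and the 10 bp on either side of their midpoint. Their density was 0.858 and 0.845 times the genome mean in H3 shutoff at 3 h, against 0.557 and 0.527 at 0 h, a log2 change of 0.62 in replicate 1 and 0.68 in replicate 2. With 1 read per identical fragment the changes were 0.36 and 0.41. In wildtype the density was 0.443 at 3 h against 0.421 at 0 h. The edges of the gaps under 350 bp and the midpoints of ordinary linkers are both positions of low density in wildtype, and no test of a difference between their changes was made.

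**Figure D2:**
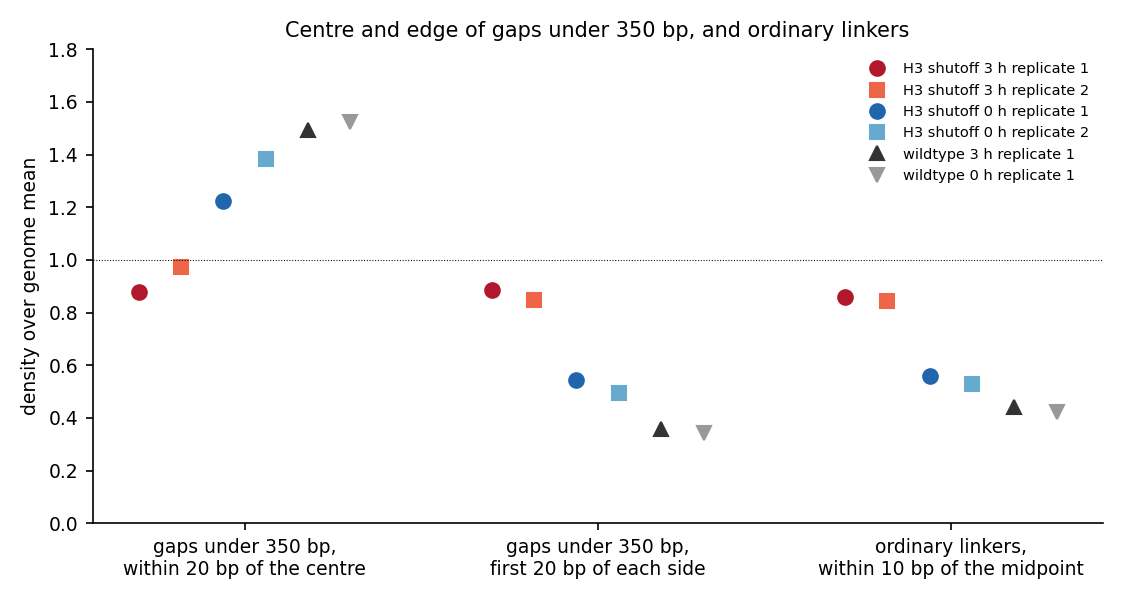
Density of read centres over the genome mean in each of the 6 libraries (points), within 20 bp of the middle of the 10288 gaps under 350 bp, over the first 20 bp on each side of their interior, and within 10 bp of the midpoint of 33917 ordinary linkers. The H3 shutoff libraries of 3 h are lowest at the middle (0.876 and 0.972) and highest at the edge (0.884 and 0.846) and at the linker midpoint.

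Summed over the whole interior, loss at the middle and gain at the edges nearly cancelled. All 10451 interiors held 10.72% and 10.98% of the reads in H3 shutoff at 3 h (95% exact binomial intervals 10.70% to 10.75% and 10.95% to 11.01%), against 10.24% and 10.64% in H3 shutoff at 0 h (10.21% to 10.26% and 10.62% to 10.67%). The log2 change was 0.06 ± 0.02 (SD, n = 2 pairs), and in wildtype 0.0021. Starting the interior at 110 bp from the flanking centres turned the change to -0.14, and starting it at 75 bp raised it to 0.17. Counting 1 read per identical fragment gave -0.02. A statement that these gaps as a whole gained or lost reads therefore depends on how much of the edge is counted.

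The flanking nucleosomes held a smaller share of reads. Density within 50 bp of the flanking centres was 1.29 and 1.32 times the genome mean in H3 shutoff at 3 h, against 1.55 and 1.69 at 0 h, a log2 change of -0.27 and -0.36, and it was 1.81 in wildtype at 3 h against 1.86 at 0 h. The ratio of interior to flank was 0.654 and 0.654 in H3 shutoff at 3 h, against 0.519 and 0.493 at 0 h. In wildtype it was 0.446 at 3 h against 0.433 at 0 h. The log2 change of the ratio in H3 shutoff was 0.37 ± 0.05 (SD, n = 2 pairs). It was 0.18 with the interior from 110 bp and 0.19 with 1 read per identical fragment. Its sign, unlike that of the change of the interior alone, was the same under the alternatives tried.

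How empty a narrow gap was in wildtype went with the direction of its change. The 10288 gaps under 350 bp were divided into quartiles of 2572 gaps by their interior level in the wildtype 3 h library, which enters no H3 shutoff difference. In the emptiest quartile the interior density was 0.578 and 0.572 in H3 shutoff at 3 h, against 0.458 and 0.416 at 0 h, a log2 change of 0.34 and 0.46. The second quartile changed by 0.24 and 0.18 and the third by 0.09 and 0.02. In the fullest quartile it was 1.12 and 1.18 at 3 h, against 1.26 and 1.35 at 0 h, a log2 change of -0.17 and -0.19. Both replicates thus ran in the same order over the 4 quartiles, and the levels lay closer together at 3 h than at 0 h. Over all nucleosome windows the median log2 change was -0.19 and -0.24, while the midpoints of ordinary linkers changed by 0.62 and 0.68. Gain at sparse positions and loss at dense ones was thus not particular to these gaps.

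**Figure D3:**
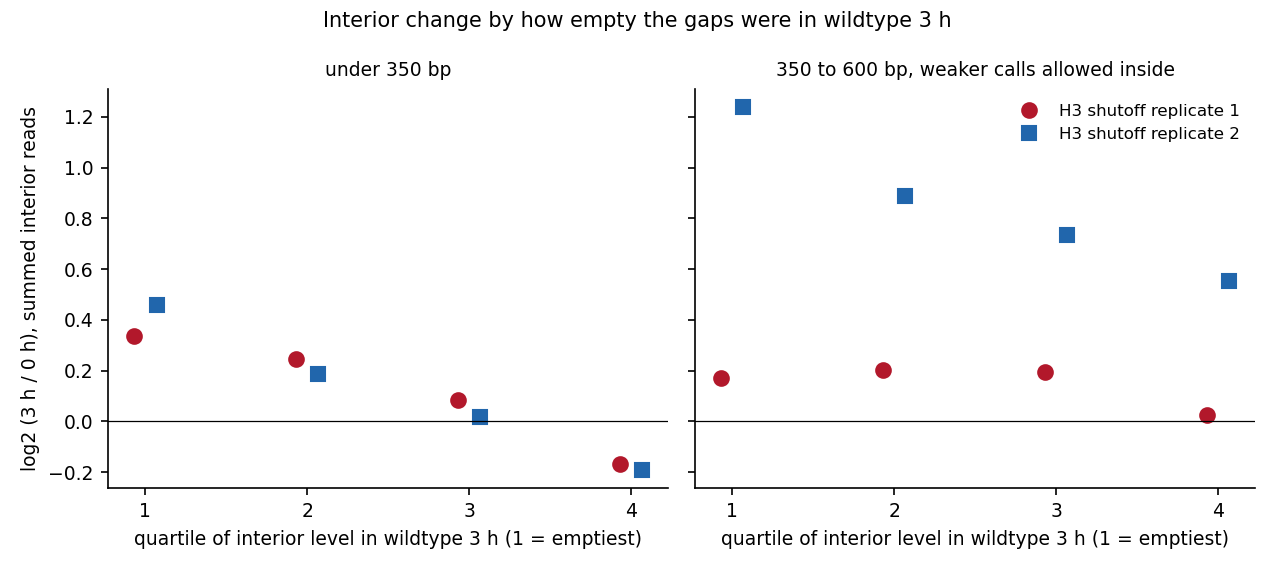
Log2 change of summed interior reads, 3 h over 0 h, in the 2 H3 shutoff pairs (points), by quartile of interior level in wildtype 3 h (1 the emptiest). Left, gaps under 350 bp, where both pairs go from a gain in the emptiest quartile (0.34 and 0.46) to a loss in the fullest (-0.17 and -0.19); right, gaps of 350 to 600 bp with weaker calls allowed inside, where the pairs differ in size.

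The gaps of 350 bp or more, in which a further nucleosome could have been called but was not, stayed far below the genome mean in all libraries. Their 163 interiors, 37272 bp in all, held 3182 and 3387 read centres in H3 shutoff at 3 h, against 3242 and 1148 in H3 shutoff at 0 h, and 1330 in wildtype at 3 h against 817 at 0 h. The median gap held 14 and 17 read centres in H3 shutoff at 3 h, against 15 and 5 at 0 h, and 6 in wildtype at 3 h against 3 at 0 h. Both 3 h libraries and H3 shutoff 0 h replicate 1 were alike, and the other 0 h library of H3 shutoff was close to wildtype at 3 h.

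The change in these gaps therefore rests on 1 library. The log2 change was -0.03 in replicate 1 and 1.56 in replicate 2, a mean of 0.77 ± 1.12 (SD, n = 2 pairs), which is within the spread between pairs. With 1 read per identical fragment the mean was 0.48. Without H3 shutoff 0 h replicate 1, the 3 h libraries were at 0.206 and 0.219 times the genome mean against 0.0742 in the remaining 0 h library. Without H3 shutoff 0 h replicate 2, they were set against 0.210. In wildtype the log2 change was 0.70, and it involves the library that chose the gaps. The flanks of the wider gaps changed by -0.30 and -0.25 on the log2 scale.

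By width, the same split between libraries held in the 2 middle classes and was absent in the widest. The 89 gaps of 350 to under 400 bp were at 0.212 and 0.217 times the genome mean in H3 shutoff at 3 h, against 0.213 and 0.0818 at 0 h, with log2 changes of -0.01 and 1.41. The 64 gaps of 400 to under 500 bp were at 0.227 and 0.252 at 3 h, against 0.238 and 0.0653 at 0 h, with changes of -0.07 and 1.95. The 10 gaps of 500 to 600 bp were at 0.0786 and 0.0752 at 3 h, against 0.0637 and 0.0786 at 0 h, with changes of 0.30 and -0.06. In wildtype the widest class was at 0.0596 at 3 h against 0.0569 at 0 h. No library had more than 116 read centres in the 10 widest gaps together, so that differences of the size seen at 350 to 500 bp would be visible there, while small ones would not.

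**Figure D4:**
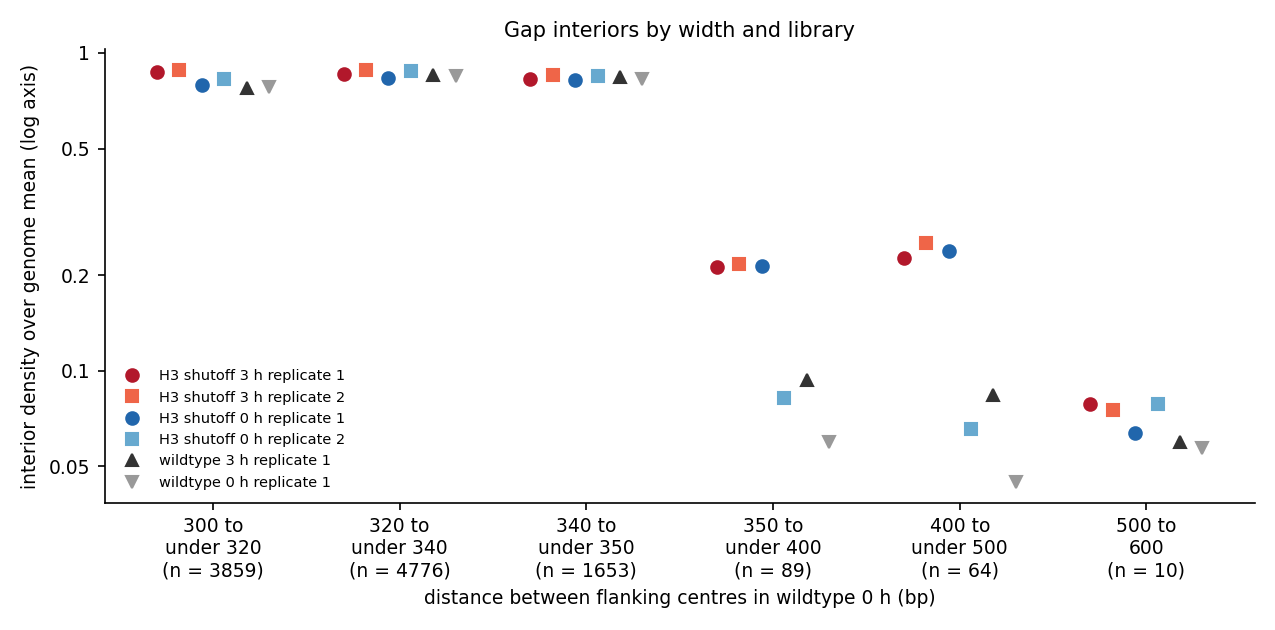
Density of read centres in gap interiors over the genome mean (log axis) by width class of the gap in wildtype 0 h, for the 6 libraries (points). Below 350 bp all libraries lie between 0.776 and 0.885; from 350 to under 500 bp both H3 shutoff 3 h libraries and H3 shutoff 0 h replicate 1 lie above 0.2 and the other libraries below 0.1; at 500 to 600 bp all 6 lie below 0.1.

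The gain in replicate 2 lay more at the edges than at the middle. Over the first 20 bp of each side, the wider gaps were at 0.436 and 0.475 times the genome mean in H3 shutoff at 3 h, against 0.354 and 0.174 at 0 h. Within 20 bp of the middle they were at 0.0645 and 0.0454 at 3 h, against 0.118 and 0.0220 at 0 h. The middle of these gaps thus stayed close to empty in both 3 h libraries, and replicate 1 was lower there at 3 h than at 0 h, with a log2 change of -0.86 against 1.05 in replicate 2.

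A larger set was obtained when calls under 20 read centres were left out before gaps were measured, so that a weak nucleosome could lie inside. This gave 3135 gaps of 350 to 600 bp, of which 2847 held 1 weak call, 125 held more and 163 were the gaps above. Their interiors were at 0.514 and 0.512 times the genome mean in H3 shutoff at 3 h, against 0.468 and 0.300 in H3 shutoff at 0 h, and at 0.312 in wildtype at 3 h against 0.250 at 0 h. The log2 change was 0.14 in replicate 1 and 0.77 in replicate 2, upward in both, and the 0 h library of replicate 1 was again close to the 3 h level. Edges changed by 0.42 and 0.91 and the middle by 0.03 and 0.68. Flanks changed by -0.22 and -0.21 on the log2 scale.

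In these 3135 gaps the emptiest quartile by wildtype 3 h was at 0.305 and 0.312 in H3 shutoff at 3 h, against 0.271 and 0.132 at 0 h, a log2 change of 0.17 and 1.24. The fullest quartile was at 0.694 and 0.692 at 3 h, against 0.681 and 0.471 at 0 h, a change of 0.03 and 0.55. Over the 4 quartiles replicate 2 ran from the largest gain in the emptiest gaps to the smallest in the fullest, whereas in replicate 1 the first 3 quartiles were alike, at 0.17, 0.20 and 0.19.

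Whether gaps filled, widened or stayed was next asked of each library's own called nucleosomes with at least 20 read centres. A gap was filled where a call lay in its interior. Otherwise the distance between the nearest calls on either side of its middle was compared with wildtype 0 h, and a difference over 20 bp made it wider or narrower. Of the 163 gaps of 350 bp or more, 28 and 27 were filled in H3 shutoff at 3 h, against 28 and 2 at 0 h, and 3 in wildtype at 3 h. Wider were 44 and 38 in H3 shutoff at 3 h, against 31 and 34 at 0 h, and 36 in wildtype at 3 h. Narrower were 46 and 49 at 3 h, against 14 and 19 at 0 h, and 26 in wildtype at 3 h. Kept within 20 bp were 45 and 49 at 3 h, against 90 and 108 at 0 h, and 98 in wildtype at 3 h. Kept, narrower and wider gaps did not overlap between 3 h and 0 h of H3 shutoff, and wildtype at 3 h lay among the 0 h libraries for kept gaps, and between the times for narrower and wider gaps. For wider gaps the margin was thin. They were 39 and 29 at 3 h against 23 and 28 at 0 h with a width difference of 40 bp. With a call limit of 10 read centres they were 21 and 18 against 13 and 17. A gap also counted as wider where a flanking call fell under the limit. Filling differed between the times in replicate 2 only.

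Most of the wider gaps stayed unfilled throughout. In 113 of the 163, no call lay in the interior in any of the 4 H3 shutoff libraries, and 4 were filled in both 3 h libraries and in neither 0 h library. Because shorter fragments leave more room for calls, the same was asked without calls, as any window of 101 bp in the interior with 20 or more read centres. Such a window was found in 43 and 41 of the 163 gaps in H3 shutoff at 3 h, against 43 and 6 at 0 h, and in 7 in wildtype at 3 h against 3 at 0 h. The order of the libraries was that of the calls.

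**Figure D5:**
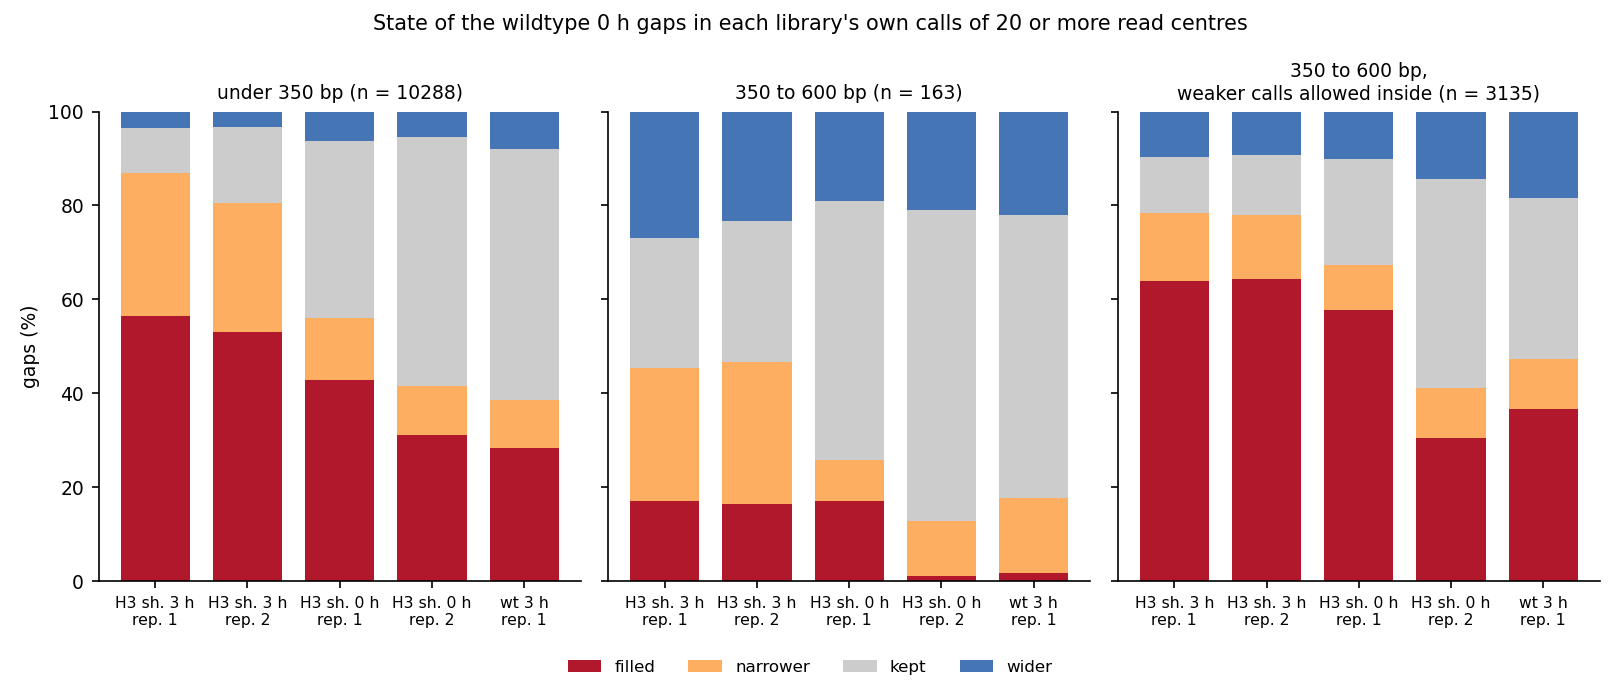
Percent of the wildtype 0 h gaps (vertical axis) that were filled, narrower, kept or wider in the calls of each of the other 5 libraries (bars), for 10288 gaps under 350 bp, 163 gaps of 350 to 600 bp and 3135 gaps of 350 to 600 bp with weaker calls allowed inside. Narrower gaps are more frequent in both H3 shutoff libraries of 3 h than in the 3 others in all 3 panels, and H3 shutoff 0 h replicate 1 has as many filled gaps of 350 bp or more (28 of 163) as the 3 h libraries.

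Of the 3135 gaps with weaker calls allowed, 63.8% and 64.4% were filled in H3 shutoff at 3 h, against 57.8% and 30.5% at 0 h, and 36.6% in wildtype at 3 h. In 264 of them a call appeared in both 3 h libraries and in neither 0 h library, and 19 went the other way. A total of 571 were unfilled in all 4 H3 shutoff libraries. By windows of 101 bp, 78.3% and 81.0% held 20 or more read centres at 3 h, against 76.7% and 49.3% at 0 h, and 53.1% in wildtype at 3 h against 38.8% at 0 h.

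Gaps under 350 bp were filled in 56.5% and 53.0% of cases in H3 shutoff at 3 h, against 42.8% and 31.2% at 0 h, and in 28.3% in wildtype at 3 h. The narrowest gap with room for another call measured 318 and 332 bp in the H3 shutoff libraries of 3 h, against 342 and 346 bp in those of 0 h, and its part in this order was not tested. Windows of 101 bp with 20 or more read centres were found in 91.8% and 93.0% of these gaps in H3 shutoff at 3 h, against 88.8% and 87.1% at 0 h, and in 85.2% in wildtype at 3 h against 86.0% at 0 h. Narrower were 30.4% and 27.4% of the gaps under 350 bp in H3 shutoff at 3 h, against 13.3% and 10.4% at 0 h, and 10.2% in wildtype at 3 h. Kept were 9.49% and 16.3% at 3 h, against 37.7% and 53.0% at 0 h, and 53.5% in wildtype at 3 h. Wider were 3.53% and 3.20% at 3 h, against 6.25% and 5.45% at 0 h, and 7.92% in wildtype at 3 h. The median width of the unfilled ones was 276 and 291 bp at 3 h, against 320 and 322 bp at 0 h, and 323 bp in wildtype at 3 h. By each library's calls, fewer of the narrow gaps were thus kept at 3 h, and more were filled or narrower. The closest calls were 159 and 166 bp apart in H3 shutoff at 3 h, against 171 and 173 bp at 0 h. The part of this limit in the kept and narrower shares was not tested either. Filled, kept and narrower refer to calls alone here. Most of these gaps held a window with 20 or more read centres at 0 h too, and their middle lost read centres at 3 h.

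The position of read centres at the flanks was also compared in a fixed window, which does not follow a call that lies further off. Over all 10451 gaps, the mean position of read centres within 80 bp of a flanking centre shifted away from the gap by a median of -2.24 bp in replicate 1 and -1.99 bp in replicate 2, that is toward the gap, and by -0.36 bp in wildtype. At the gaps of 350 bp or more the shift was 2.18 bp away from the gap in replicate 1 and 0.69 bp toward it in replicate 2, so that the replicates differed in direction. At the gaps with weaker calls allowed it was 1.36 bp and -0.23 bp.

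Single gaps were tested with edgeR's quasi-likelihood test (replicate as a block, Benjamini-Hochberg adjustment) over 62614 regions, which were all wildtype 0 h nucleosomes and all gap interiors with at least 1 read. Of 10449 interiors tested, 61 were higher in H3 shutoff at 3 h than at 0 h and 15 were lower at an adjusted p under 0.05. Over all regions tested 0.479% were higher and 4.39% were lower, so the share of gaps called higher (0.584%) was close to that background and the share called lower (0.144%) was below it. The median log2 change was 0.12 over gap interiors, beside -0.15 over all regions. TMM scaling moved the median of all regions to 0.03 and that of gap interiors to 0.29, and gave 272 higher and 5 lower interiors, against a background of 1.82% and 2.34%. DESeq2 called 0 interiors in either direction, with 210 higher (2.01%) and 8 lower (0.0766%) at an unadjusted p under 0.05, beside 1.41% and 2.67% of all regions. Without the block, edgeR gave 27 higher and 7 lower interiors, beside 0.174% and 2.45% of all regions. With the interior from 110 bp it gave 8 higher and 55 lower, beside 0.299% and 3.49%, so that the split between gains and losses turned round. With 1 read per identical fragment it gave 2 higher and 0 lower, beside 0.00479% and 0.0144% of all regions, so that few regions of any kind were called. Leaving out any 1 of the 4 libraries, without the block, left 0 calls. The number of single gaps called thus depended on the setting.

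Of the 163 gaps of 350 bp or more, 162 were tested, and 2 were higher and 0 lower by edgeR, with 29 higher (17.9%) and 0 lower at an unadjusted p under 0.05, beside 4.53% higher and 16.6% lower among all regions. The interiors of the 163 held a median of 15 and 5 read centres in H3 shutoff at 0 h, which left little room for a loss to be called. Without the block 0 were called, with a lowest adjusted p of 0.0541 by edgeR. There were also 0 calls with DESeq2, with the interior from 110 bp and with 1 read per identical fragment, and 8 higher with TMM. At an unadjusted p under 0.05, 8 were higher with DESeq2 (4.94%, beside 1.41% of all regions), 12 from 110 bp (7.41%, beside 3.87%) and 18 with 1 read per identical fragment (11.1%, beside 2.07%). Their median log2 change was 0.78, and 0.64 without the block. Leaving out 1 library, also without the block, gave 1.72 without H3 shutoff 0 h replicate 1, 0.10 without H3 shutoff 0 h replicate 2, and 0.63 and 0.65 without either 3 h library, with 0 calls each time. With weaker calls allowed inside, 50 of 3134 tested interiors of 350 bp or more were higher (1.60%) and 0 were lower, beside 0.184% higher and 1.64% lower among all 65586 regions of that fit. Without the block 0 of them were called, with 639 higher (20.4%) and 3 lower at an unadjusted p under 0.05, beside 5.35% and 16.4% of all regions. Without H3 shutoff 0 h replicate 1 as well 0 were called, with 1190 higher (38.0%) and 8 lower at an unadjusted p under 0.05, beside 5.79% and 13.7% of all regions. Without H3 shutoff 0 h replicate 2 instead 0 were called, with 404 higher (12.9%) and 151 lower (4.82%) at an unadjusted p under 0.05, beside 6.98% and 12.5% of all regions. By fold, 16 of the 163 gaps (9.82%) were at least 2-fold higher in both pairs and 1 (0.613%) was 2-fold lower. Of all regions, most of them nucleosome windows, 0.723% were 2-fold higher and 1.83% were 2-fold lower. In single pairs 25 of the 163 were 2-fold higher in replicate 1 and 116 in replicate 2, and 16 and 4 were 2-fold lower. With so many higher in replicate 2, the 16 shared gaps are no sign of agreement between the pairs. Across the 163 gaps the log2 changes of the pairs correlated at r = -0.24. Of the 10288 gaps under 350 bp, 104 (1.01%) were 2-fold higher in both pairs and 5 (0.0486%) were lower.

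The flanking nucleosomes were called lower about as often as other nucleosomes. Of 18481 flanking windows, 947 were lower in H3 shutoff at 3 h (5.12%) and 44 were higher (0.238%), beside 5.30% lower and 0.579% higher of 33684 other nucleosomes. Their median log2 change was -0.26, beside -0.18 for the others. It was -0.09 beside -0.01 with TMM, and -0.10 beside -0.02 with DESeq2. With TMM 487 flanks were lower (2.64%) and 211 higher (1.14%), beside 2.89% and 1.95% of the others. Without the block 509 were lower (2.75%) and 14 higher (0.0758%), beside 3.02% and 0.202% of the others. DESeq2 called 1 lower, edgeR with 1 read per identical fragment called 2 lower, and leaving out any 1 library called 0. The flanks all held 20 or more read centres in wildtype 0 h by the rule, whereas the other nucleosomes include weaker calls. The 2 sets therefore differ in depth as well. No test of the difference between flanks and other nucleosomes was made.

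Changes of single gaps were poorly repeated between replicates. Across the 10288 gaps under 350 bp, the log2 changes of the pairs correlated at r = -0.01, and across the 163 wider gaps at r = -0.24. The levels themselves were repeated better, at r = 0.85 between the 3 h libraries and 0.69 between the 0 h libraries across the narrower gaps, and at 0.87 and 0.44 across the wider ones. The gaps share libraries and depth, so that these values describe the libraries and have no p-value.

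The gap with the largest gain was at chr5:497741-498034 (interior, sacCer1 build), between centres 473 bp apart. It held 22 and 20 read centres in H3 shutoff at 3 h, against 3 and 4 at 0 h, and 3 in wildtype at 3 h against 5 at 0 h. The log2 change was 2.54 with an edgeR adjusted p of 0.0499. The groups did not overlap, but the gap was chosen from these same libraries, so this is no separate support. Its left flank held 10 and 17 read centres at 3 h against 14 and 39 at 0 h. The other called gap of 350 bp or more, chr8:560033-560271, with centres 418 bp apart, held 35 and 21 at 3 h against 4 and 8 at 0 h, and 11 in wildtype at 3 h against 17 at 0 h. Its log2 change was 2.18 with an edgeR adjusted p of 0.0475. Neither of these calls was made without the block.

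The largest gains in narrower gaps were at chr11:506441-506599 and chr7:1051492-1051625. The first, 338 bp wide, held 21 and 38 read centres in H3 shutoff at 3 h, against 7 and 3 at 0 h, and 1 in both wildtype libraries, with an edgeR adjusted p of 0.0301. The second, 313 bp wide, held 39 and 36 at 3 h, against 7 and 9 at 0 h, and 10 in wildtype at 3 h against 18 at 0 h, with an edgeR adjusted p of 0.0201. Both were among the emptier gaps under 350 bp, whose interiors held a median of 44 and 48 read centres in H3 shutoff at 0 h. The 61 called gains had log2 changes of 1.03 to 2.54, with a median of 1.31. All had the same sign in both pairs, but they were called on these same libraries, so this is no separate support.

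The largest losses were all in gaps under 350 bp, as were 10287 of the 10449 interiors tested. The interior at chr10:640542-640677 held 21 and 17 read centres in H3 shutoff at 3 h, against 68 and 35 at 0 h, and 34 in wildtype at 3 h against 25 at 0 h (log2 change -1.39, edgeR adjusted p = 0.0461). That at chr9:47101-47258 held 55 and 93 at 3 h, against 183 and 157 at 0 h, and 193 in both wildtype libraries (log2 change -1.23, edgeR adjusted p = 0.0199). That at chr8:416709-416839 held 38 and 40 at 3 h against 90 and 88 at 0 h, and that at chr9:93112-93281 held 68 and 85 at 3 h against 225 and 133 at 0 h. In each of the 4 the highest 3 h library lay below the lowest 0 h library of H3 shutoff. They were chosen as the largest called losses of these same libraries, so this is no separate support. The 15 called losses spanned log2 changes of -1.39 to -0.93.

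The 2 widest gaps with reads in every library did not pass the test, with edgeR adjusted p-values of 0.915 and 0.918. The interior at chr2:34009-34397, 568 bp between centres, held 6 and 8 read centres in H3 shutoff at 3 h, against 4 and 8 at 0 h, and 9 in wildtype at 3 h against 3 at 0 h. That at chr12:95150-95529, 559 bp between centres, held 3 and 12 at 3 h against 9 and 3 at 0 h, and 6 in wildtype at 3 h against 1 at 0 h. At the second the pairs went in opposite directions.

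At the other end were the interiors with the most reads. That at chr5:575322-575486, 344 bp between centres, held 598 and 692 read centres in H3 shutoff at 3 h, against 297 and 502 at 0 h, and 428 in wildtype at 3 h against 506 at 0 h. In all 6 libraries it held more read centres than either flanking window of 101 bp, which held 160 and 258 in H3 shutoff 3 h replicate 1, so that it was not empty of reads. That at chr15:1088466-1088608, 322 bp wide, held 520 and 523 at 3 h against 302 and 547 at 0 h, and did not pass the edgeR test (adjusted p = 0.672). A single gap, chr7:1077215-1077366, had 0 read centres in all 6 libraries, which allows up to 3 read centres per library by counting error. Its flanks, 331 bp apart, held 19 to 54. The flanks of the gap on chromosome 15 were deep as well, at 269 to 760 read centres over the 6 libraries. Whether the sequence of any named gap occurs once in the genome was not tested, so very high or absent reads there need not reflect nucleosomes. The deposited regions carry no gene names, and no annotation of the sacCer1 build was used, so the genes at these gaps are not given.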

How the data were processed

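Single-end MNase-seq libraries came from H3 shutoff at 3 h and 0 h (n = 2 each) and wildtype at 3 h and 0 h (n = 1 each), with groups and replicate numbers taken from the sample titles. Per the methods, the authors aligned reads with Bowtie 0.12.6 to sacCer1, extended each to the mean fragment length of its library, removed ribosomal DNA and drew equal numbers of reads at random. They deposited 1 interval per read and, per library, called nucleosomes with whole-number counts of read centres, not normalized. Recounting gave identical counts for at least 99.996% of calls.

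Read centres were counted in gap interiors and within 50 bp of nucleosome centres. Levels are densities over the mean of 12047632 bp. Changes per gap used a pseudocount of 1 read. Tests used edgeR 4.0.16 (R 4.3.3) with library totals, with DESeq2 1.42.0 as an alternative, and Python 3.11.15. The replicate was a block because, per the methods, each is 1 culture sampled at both times. Deviations of same-numbered libraries correlated at r = -0.09, which gives the pairing by number no support from the data. The test was checked on simulated data, where most 2-fold changes in gap interiors went uncalled.

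Gaps and rules were chosen with earlier results of these data known. Gaps named were the 4 largest called changes in each direction with 1 sign in both pairs, the 2 widest with reads in every library, the 2 with most reads over the H3 shutoff libraries, and those at 0. Alternatives were other insets (75 and 110 bp), 1 read per identical interval, other count limits, gaps from wildtype 3 h, TMM, no block, a mean of 10 reads and leaving out libraries. Sequence composition was not analysed here, since no genome of this build was used. P-values measure only the spread between these libraries.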

Additional observations from a re-analysis of the deposited data

How the results depend on the processing

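Over 207 alternatives of 24 results, 14 turned the sign, 8 of them beyond the spread between pairs. The other 6 were the changes at 350 bp or more, at 350 to under 400 bp and at 400 to under 500 bp without replicate 2, and that at 500 to 600 bp from 75 bp (-0.04), with 1 read per identical interval (-0.06) and without replicate 1. A change with 1 pair left out is that of the other pair, which lies within the spread by construction. The percent filled could not change with the width difference either, nor the gaps under 350 bp when weaker calls were allowed. A further 101 moved the result by more than that spread, or a count by over 1.5 times. The cause was not tested for any of them. The log2 change of interior reads over all gaps (0.06) was -0.14 with the interior from 110 bp, 0.17 from 75 bp, -0.0195 with 1 read per identical interval, 0.13 with weaker calls allowed, -0.0062 with flanks of 40 or more read centres and 0.0334 with gaps from wildtype 3 h. In the same order the median change per gap (0.10) was -0.0766, 0.21, -0.0202, 0.16, 0.0307 and 0.0776. The gaps under 350 bp gave -0.14, 0.17, -0.0214, -0.0085 with flanks of 40 or more and 0.0319 with gaps from wildtype 3 h. Interior over flank (0.37) was 0.18 from 110 bp, 0.49 from 75 bp, 0.19 with 1 read per identical interval and 0.43 with weaker calls allowed. At 500 to 600 bp the change (0.12) was 0.45 with weaker calls allowed and 0.44 with gaps from wildtype 3 h.

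Interiors called higher by edgeR (61) were 27 without the replicate block, 272 with TMM, 0 with DESeq2, 92 at a mean of 10 reads, 8 from 110 bp, 20 with gaps from wildtype 3 h and 2 with 1 read per identical interval. Interiors called lower (15) were 7, 5, 0, 24, 55, 3 and 0 in the same order, and 3 with weaker calls allowed. At a mean of 10 reads, 0.713% of all regions were higher and 5.41% lower. These shares were 0.157% and 1.76% with gaps from wildtype 3 h, and 0.00479% and 0.0144% with 1 read per identical interval. Flanks called higher (44) were 14 without the block, 211 with TMM, 0 with DESeq2, 71 at a mean of 10 reads, 17 with weaker calls allowed, 16 with gaps from wildtype 3 h and 0 with 1 read per identical interval. Flanks called lower (947) were 509 without the block, 487 with TMM, 1 with DESeq2, 434 with weaker calls allowed, 405 with gaps from wildtype 3 h and 2 with 1 read per identical interval. A crossed pairing, chosen after seeing the data, gave 84 higher and 25 lower interiors and 72 higher and 1261 lower flanks. Of all regions it called 0.700% higher and 5.74% lower. Leaving out any 1 library, with the lone one assumed to vary like the other group, gave 0 for all 4 counts, as did weaker calls allowed without the block, with all libraries or any 1 left out, chosen after seeing the data. Without that allowance, leaving out 1 library gave 151 to 1125 interiors higher (1.45% to 10.77%) and 66 to 399 lower (0.632% to 3.82%) at an unadjusted p under 0.05, beside 1.03% to 6.70% and 6.63% to 14.4% of all regions.

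The percent of all gaps filled rose by 17.6 points between 0 h and 3 h, by 8.49 points with the interior from 110 bp, and by 4.56 points by windows of 101 bp, added after seeing the data. Wider gaps (-2.37 points) changed by -1.27 and -4.23 points with call limits of 10 and 40 and by -1.39 points with a difference of 40 bp. Narrower gaps (17.2 points) changed by 16.9 and 13.7 points with those limits, by 26.0 points from 110 bp and by 15.3 points with 40 bp, and kept gaps (-32.4 points) by -22.1 points with a limit of 40. The shift of flanks (-2.11 bp) was -1.83 bp in a 60 bp window and -1.51 bp with 1 read per identical interval, and the change at linker midpoints (0.65) was 0.39 with the latter. With it, chosen after seeing the data, the middle of gaps under 350 bp changed by -0.39 in place of -0.50, and the edge by 0.43 in place of 0.74.

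With 1 replicate pair left out, the changes ran from 0.05 to 0.07 for all interiors, 0.33 to 0.41 over flanks, 0.09 to 0.12 for the median, 0.04 to 0.07 under 350 bp, -0.03 to 1.56 at 350 bp or more, -0.01 to 1.41, -0.07 to 1.95 and -0.06 to 0.30 in its 3 width classes, 0.62 to 0.68 at linkers, -0.51 to -0.48 at the middle and 0.71 to 0.77 at the edge of gaps under 350 bp. Filled gaps ran from 13.5 to 21.7 points, wider from -2.55 to -2.18, narrower from 17.1 to 17.2, kept from -36.7 to -28.2, and the shift from -2.24 to -1.99 bp. A gap of 350 bp or more held a median of 3 to 17 read centres, which limits what single gaps can show.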
